A study of Canis lupus familiaris with 20 samples.

Results

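CD80, CD86, CD40 and SLAMF1 are surface molecules through which antigen-presenting cells give T cells a signal beyond antigen, and they were followed here in canine mammary cancer cells and macrophages before and after co-culture. They were found by matching the RefSeq accession of each array probe to a gene symbol, which found 4 of the 1045 genes with a symbol on the array, with 6 of its 43603 probes: 2 for CD80, 1 for CD86, 2 for CD40 and 1 for SLAMF1. The brighter CD80 probe was A_11_P058586 and the dimmer one A_11_P0000019866. CD86 was read by A_11_P0000019865. The brighter CD40 probe was A_11_P0000019708 and the dimmer one A_11_P051116, and SLAMF1 was read by A_11_P0000019807. None of the 6 probes was saturated or marked as an outlier spot on any of the 20 arrays, and the probes of one gene are given apart throughout.

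The canine mammary tumour cells were of 5 lines: the adenocarcinoma lines CMT-W1 and CMT-W2, the anaplastic P114, the spindle-cell CMT-U309, and CMT-U27 from a simple carcinoma. Each was grown alone or under a layer of CD64-positive blood monocytes from healthy dogs. The cancer cells carried the dye CMTMR, and after 72 h the stained cancer cells and unstained macrophages were separated by flow cytometric sorting. Each sorted population was hybridised on a two-colour array against the same cells from a mono-culture, and every such pair was repeated with the dyes exchanged, so that 10 arrays of cancer cells and 10 of macrophages gave 5 ratios for each cell type. Each ratio stands for 1 co-culture of 1 established line, and the number of separate macrophage mono-cultures was not stated, so part of the spread between samples may be technical. The macrophages were monocytes only partially differentiated in culture. Co-cultured cells were trypsinised and sorted while mono-cultured cells were scraped, so that co-culture and handling cannot be told apart.

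CD80 and CD86 are B7 family ligands on dendritic cells, macrophages and B cells. Both bind CD28 on T cells, which promotes activation, and CTLA4, which restrains it. CD40 is a receptor of the tumour necrosis factor receptor family on the same cells and also on some epithelial and tumour cells. It is engaged by CD40LG on activated T cells and signals through NF-kappaB, and inflammatory stimuli such as interferon raise it. SLAMF1 (CD150) is a self-binding receptor of activated lymphocytes, dendritic cells and macrophages.

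The arrays differed in quality before any comparison. Of all probes, 51.0% to 96.3% were well above background in the co-culture channel of the cancer cell arrays and 54.5% to 74.7% in that of the macrophage arrays. The correlation between the 2 dye-swap ratios over all tested probes was lowest for the CMT-W1 cancer cells (r = 0.695), and the array of CMT-U309 cancer cells with the co-culture in Cy5 held 9870 outlier spots. The sorted populations were also checked against markers of macrophages. Of 16 markers listed, 8 were on the array with a symbol (CD163, C5AR1, FCGR1A, CD209, ADGRE1, CTSS, CYBB and TYROBP), and in mono-culture all 8 were called higher in the macrophages. The co-cultured CMT-U27 cancer cells held them at a median of 52.4% of their mean level in mono-cultured macrophages, while the macrophages sorted from the same co-culture held them at 14.2%, so the macrophage markers were higher in the population labelled cancer cells. This held for each of the 8 markers. With CMT-W2 the order of the medians was the same, at 7.95% in the cancer cells and 3.58% in the macrophages. There CYBB (34.3% and 180.9%), TYROBP (9.25% and 18.6%) and ADGRE1 (5.63% and 11.3%) went the other way, so the markers were mixed. With CMT-U309 (11.8% and 28.0%), P114 (4.05% and 5.80%) and CMT-W1 (1.86% and 2.66%) the macrophages were higher by the median. C5AR1 went the other way with P114, as did C5AR1 and CTSS with CMT-W1. Whether the sorted populations of CMT-U27 or CMT-W2 were exchanged was not tested. An exchange would turn the sign of any difference in co-culture level between the 2 populations of that co-culture. It would also alter the log2 ratios of both, without necessarily turning the sign of their difference. The epithelial markers could not serve as a counterpart, since only MUC1 of 12 had a symbol on the array. Values with and without CMT-U27 are given below where its removal altered a call.

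In mono-culture all 4 genes were higher in macrophages. Levels are given as log2 of the processed signal, normalized between arrays, and they compare cultures for 1 probe, not probes with each other. Comparing the mono-cultures, all 6 member probes were higher in macrophages than in cancer cells (limma, adjusted p under 0.05), against 20.2% of the 27829 probes tested called higher in macrophages and 35.3% called in either direction. Both CD80 probes and SLAMF1 entered this test only because they were well above background in macrophages. For them a difference in this direction was therefore favoured in advance. For CD86 the mono-culture level was 16.89 ± 0.18 (SD, n = 5) in macrophages and 9.18 ± 1.52 in cancer cells, a difference of 7.71 (SE 0.62, limma adjusted p = 4.92e-06). For the brighter CD80 probe the difference was 8.13 (SE 0.47, adjusted p = 5.08e-07), with 12.61 ± 0.09 in macrophages and 4.48 ± 1.10 in cancer cells, where it was well above background on 1 of 10 arrays, so that the size is set by the background. SLAMF1 stood at 12.08 ± 0.11 and 6.84 ± 1.10, a difference of 5.24 (SE 0.47, adjusted p = 1.07e-05). The difference was 4.33 (SE 0.48, adjusted p = 4.80e-05) for the brighter CD40 probe. The levels of the 2 mono-cultures overlapped for the dimmer CD40 probe. Its level in mono-cultured CMT-W1 cells was 10.36, above all 5 macrophage mono-cultures (9.93 to 10.33), against 7.10 to 8.14 in the other 4 lines. Its mean difference was 2.09 (SE 0.57, adjusted p = 0.0147), and the call was lost when CMT-U27 (adjusted p = 0.0613), CMT-U309 (0.0687), CMT-W2 (0.0623) or P114 (0.0604) was left out. The brighter CD40 probe gave 8.46 for the same CMT-W1 cells, near the 8.21 to 8.86 of the lines CMT-U27, P114 and CMT-U309, so the 2 CD40 probes disagreed on that line.

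Much of the mono-cultured cancer cell signal lay at the background. The brighter CD80 probe was well above background there on 1 of 10 arrays and the dimmer one on 2, both of CMT-U309. SLAMF1 was well above background on 5 of 10 arrays, the brighter CD40 probe on 7, CD86 on 8 and the dimmer CD40 probe on 9. In mono-cultured and co-cultured macrophages all 6 probes were well above background on 10 of 10 arrays.

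**Figure D1:**
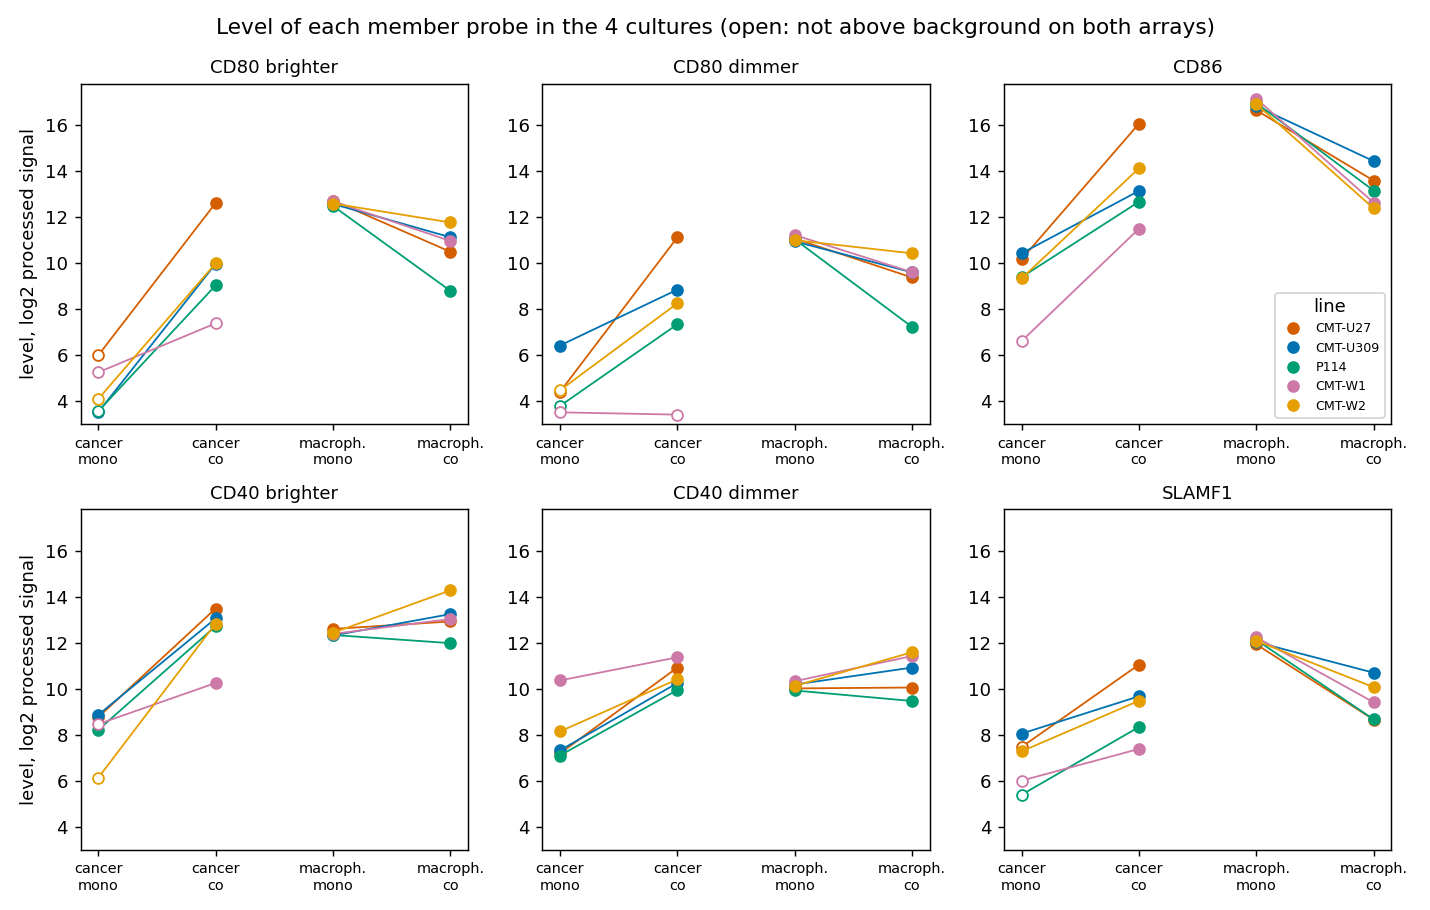
Level of each member probe (log2 processed signal) in mono-cultured and co-cultured cancer cells and macrophages, with 1 point per line (mean of 2 dye-swap arrays), lines joining the 2 cultures of 1 co-culture, and open points where the probe was not well above background on both arrays. The mono-cultured macrophages lie close together (CD86 at 16.64 to 17.14), and CD80, CD86 and SLAMF1 converge in co-culture while both CD40 probes end at or above the macrophage level in most co-cultures.

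In the sorted cancer cells all 4 genes were higher after co-culture with macrophages. All 6 member probes were called up (limma, adjusted p under 0.05), where 5.95% of the 29712 probes tested were called up and 11.4% in either direction. Both CD80 probes and SLAMF1 entered this test only because they were well above background in the co-cultures, so a rise was favoured in advance for them. The member genes, by their brighter probes, had a median log2 ratio of 4.35, and the median of all probes tested was -0.01. Without CMT-U27 5 of the 6 probes were called up, against 2.04% of all probes tested.

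CD86 rose in each of the 5 lines. Its log2 ratio was 5.89 in CMT-U27, 4.89 in CMT-W1, 4.79 in CMT-W2, 3.28 in P114 and 2.71 in CMT-U309. The smallest of these was a 6.56-fold rise and the largest a 59.4-fold rise. The mean was 4.31 ± 1.29 (SD, n = 5; limma SE 0.46, adjusted p = 0.00388). In the CMT-W1 mono-culture CD86 was not well above background on either array, and the co-culture was at least 23.7-fold higher. The dye-swap arrays of CD86 differed by at most 0.56.

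CD80 rose as well, from almost no measurable signal. The brighter probe gave log2 ratios of 6.62 in CMT-U27, 6.45 in CMT-U309, 5.90 in CMT-W2, 5.47 in P114 and 2.13 in CMT-W1, with a mean of 5.31 ± 1.84 (SD, n = 5; limma adjusted p = 0.00594). The mono-culture was not well above background on either array for any line but CMT-U27. The sizes by this probe are therefore bounds: at least 51.3-fold in CMT-U309, at least 33.6-fold in P114 and at least 59.6-fold in CMT-W2. In CMT-W1 the co-culture itself was above background on 1 of 2 arrays. The dye-swap arrays of the brighter probe differed by up to 1.325, in P114.

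The dimmer CD80 probe gave log2 ratios of 6.72 in CMT-U27, 3.78 in CMT-W2, 3.55 in P114, 2.43 in CMT-U309 and 0 in CMT-W1, where neither culture was above background on either array. With the mono-culture at the background, the rise was at least 58.0-fold in CMT-U27, at least 13.7-fold in CMT-W2 and at least 9.18-fold in P114. The mean log2 ratio was 3.29 ± 2.43 (SD, n = 5; limma adjusted p = 0.0423). For this probe the array with the co-culture in Cy5 gave the lower ratio in each of the 4 lines where it was measured, by 1.39 to 2.84, the widest gap being in CMT-U309 (3.85 against 1.01). The call did not survive leaving out CMT-U27 (limma adjusted p = 0.0849), CMT-U309 (0.0776), CMT-W2 (0.103) or P114 (0.115). In cancer cells the 2 CD80 probes disagreed. The log2 ratio of the brighter one was higher by 4.03 in CMT-U309, 2.13 in CMT-W1, 2.12 in CMT-W2 and 1.92 in P114, and lower by 0.1 in CMT-U27. In CMT-U309 the dimmer probe, with its mono-culture well above background on both arrays, gave a 5.38-fold rise, under the bound of the brighter probe.

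CD40 rose in each line by both probes. The brighter probe gave log2 ratios of 6.71 in CMT-W2, 4.72 in CMT-U27, 4.51 in P114, 4.19 in CMT-U309 and 1.79 in CMT-W1, with a mean of 4.38 ± 1.75 (SD, n = 5; limma adjusted p = 0.0105). The dimmer probe gave 3.73 in CMT-U27, 2.92 in CMT-U309, 2.85 in P114, 2.27 in CMT-W2 and 1.01 in CMT-W1, with a mean of 2.56 ± 1.01 (SD, n = 5; adjusted p = 0.0138). CMT-W1 was lowest by both probes, and the ratio of the brighter probe was the larger one in all 5 lines. The high value of CMT-W2 by the brighter probe went with the lowest mono-culture level, 6.13 and not well above background, against 8.21 to 8.86 in the other 4 lines. By that probe the co-culture was at least 105-fold higher. The dimmer probe, well above background on both mono-culture arrays of CMT-W2, gave a 4.82-fold rise. The 2 CD40 probes thus disagreed there by 4.44 on the log2 scale, and the bound holds for the brighter probe only. Without P114 the dimmer probe had an adjusted p of 0.0527.

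SLAMF1 showed the smallest mean rise of the 4 genes as measured by their brighter probes. Its log2 ratio was 3.58 in CMT-U27, 2.94 in P114, 2.20 in CMT-W2, 1.62 in CMT-U309 and 1.38 in CMT-W1, a mean of 2.34 ± 0.92 (SD, n = 5; limma adjusted p = 0.0142). The mono-culture was not well above background in P114 and CMT-W1, where the rise was at least 7.70-fold and at least 1.92-fold. The 2 arrays of CMT-U309 differed, at 2.27 with the co-culture in Cy3 and 0.98 in Cy5. Without P114 the adjusted p was 0.0550.

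These calls in the cancer cells depended on the processing from signals to ratios. With normexp correction of the median signals and loess normalization the mean log2 ratios stayed positive but shrank, to 1.92 for the brighter CD80 probe, 3.26 for CD86, 2.88 for the brighter CD40 probe and 1.08 for SLAMF1, and 0 of 6 probes were called (limma adjusted p = 0.0592 to 0.157), although all 6 had an unadjusted p under 0.05. Over the whole array that setting called 69 of 29712 probes (0.232%). With normexp and median centring 3 of 6 were called, against 7.64% of all probes.

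**Figure D2:**
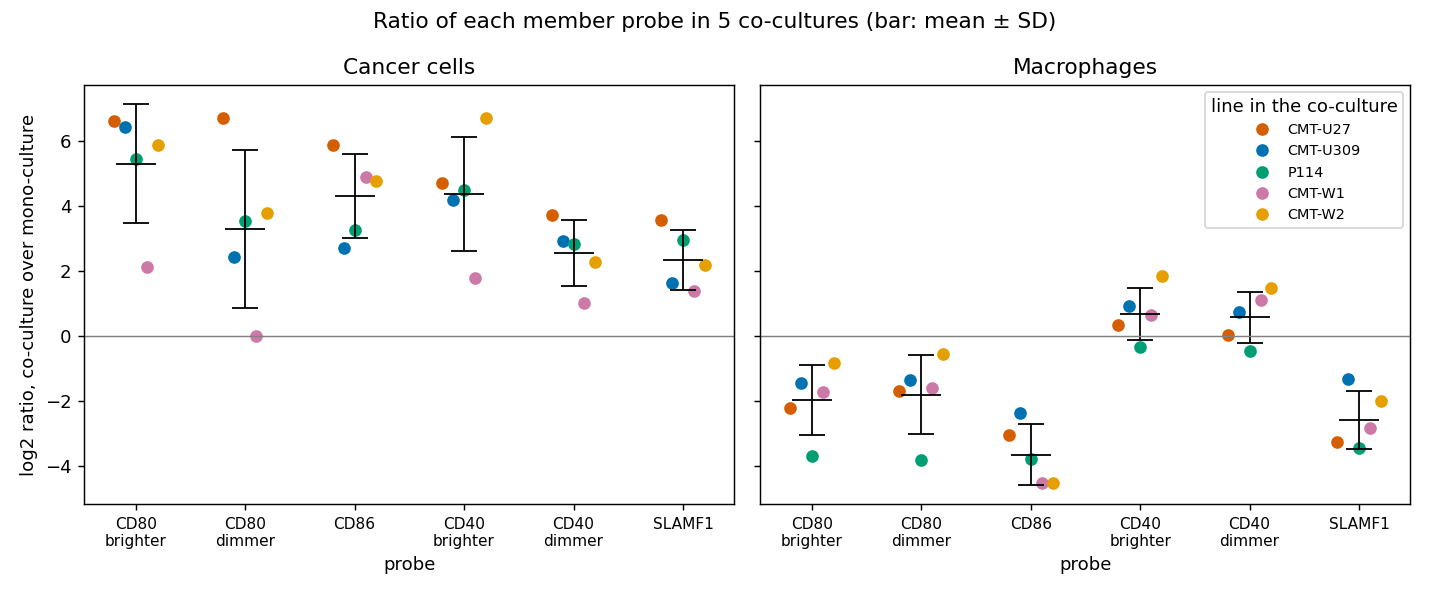
Ratio of each member probe (log2, co-culture to mono-culture), with 1 point per co-culture (mean of 2 dye-swap arrays) and the mean ± SD of 5, in cancer cells (left) and macrophages (right). In cancer cells every point lies above 0 except the dimmer CD80 probe in CMT-W1 at 0, and in macrophages CD80, CD86 and SLAMF1 lie below 0 in all 5 co-cultures while CD40 lies between -0.46 and 1.85.

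In the macrophages the 4 genes parted. CD80, CD86 and SLAMF1 fell in all 5 co-cultures, and CD40 did not fall with them. Of the 6 probes, 4 were called down and none up, where 25.9% of 30092 probes tested were called down and 46.8% in either direction. So many probes were called in macrophages that a call by itself sets these genes little apart from the rest of the array, and the sizes say more: the median log2 ratio over all probes tested was -0.14.

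CD86 fell the most. Its log2 ratio was -4.53 with CMT-W2, -4.52 with CMT-W1, -3.80 with P114, -3.06 with CMT-U27 and -2.39 with CMT-U309, a mean of -3.66 ± 0.94 (SD, n = 5; limma SE 0.36, adjusted p = 0.000354), which is a 12.6-fold lower signal. The 2 arrays with CMT-W1 differed by 1.64, at -5.34 and -3.70, and both lay below the value with CMT-U27.

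SLAMF1 fell by a mean of 2.58 ± 0.89 on the log2 scale (n = 5; limma adjusted p = 0.00125). Its log2 ratio was -3.46 with P114, -3.27 with CMT-U27, -2.83 with CMT-W1, -2.01 with CMT-W2 and -1.34 with CMT-U309. The brighter CD80 probe gave -3.69 with P114, -2.23 with CMT-U27, -1.73 with CMT-W1, -1.45 with CMT-U309 and -0.82 with CMT-W2, a mean of -1.98 ± 1.08 (SD, n = 5; adjusted p = 0.00613). The dimmer CD80 probe gave -3.81 with P114, -1.69 with CMT-U27, -1.62 with CMT-W1, -1.35 with CMT-U309 and -0.57 with CMT-W2, a mean of -1.81 ± 1.21 (adjusted p = 0.0123). In macrophages, where both were well above background everywhere, the 2 CD80 probes ranked the co-cultures in the same order and were within 0.54 of each other in each.

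CD40 was the exception. The brighter probe gave log2 ratios of 1.85 with CMT-W2, 0.93 with CMT-U309, 0.65 with CMT-W1, 0.32 with CMT-U27 and -0.36 with P114. The mean was 0.68 ± 0.81 (SD, n = 5; 95% interval -0.09 to 1.44, limma adjusted p = 0.126). The dimmer probe gave 1.46 with CMT-W2, 1.10 with CMT-W1, 0.74 with CMT-U309, 0.04 with CMT-U27 and -0.46 with P114, a mean of 0.58 ± 0.78 (95% interval -0.17 to 1.32, adjusted p = 0.175). Both probes were highest with CMT-W2 and below 0 only with P114, the co-culture in which CD80 and SLAMF1 fell furthest. The log2 ratio of CD40 exceeded that of CD80 by 2.66 ± 0.40 (SD, n = 5), that of SLAMF1 by 3.26 ± 0.62 and that of CD86 by 4.34 ± 1.38, each in 5 of 5 co-cultures by the brighter probes. Exact two-sided sign-flip permutation tests over the 5 co-cultures gave p = 0.0625 for each, the smallest value that 5 pairs can give. After adjustment over the 6 such comparisons made in both cell types this p became 0.0938. These tests could therefore not have reached the threshold used here, and they do not decide whether CD40 differed from the other genes. Only CD40 was set against the others in this way, and the genes were chosen with earlier results of these data known.

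The response differed between the cell types for each of the 4 genes. The log2 ratio in macrophages minus that in cancer cells was called below 0 for all 6 probes, where 16.2% of 31133 probes tested were called below 0 and 30.7% in either direction. For CD86 it was -7.97 (SE 0.63, limma adjusted p = 1.49e-05). It was -7.30 (SE 0.82, adjusted p = 9.25e-05) for the brighter and -5.10 (SE 1.03, adjusted p = 0.00316) for the dimmer CD80 probe, both sizes being set by the background of the mono-cultured cancer cells, and -4.93 (SE 0.53, adjusted p = 6.97e-05) for SLAMF1. For CD40, whose macrophage ratio was not called, the difference was -3.71 (SE 0.75, adjusted p = 0.00328) for the brighter and -1.98 (SE 0.53, adjusted p = 0.0144) for the dimmer probe. The macrophage ratio of the brighter CD40 probe with CMT-W2 (1.85) lay above the cancer cell ratio of CMT-W1 (1.79), so the 2 cell types overlapped there, as they did for the dimmer probe (1.46 and 1.01 in the same populations). The call of the dimmer CD40 probe was lost without CMT-U27 (adjusted p = 0.0747) or P114 (0.0722), and also with normexp and loess (-0.88, adjusted p = 0.103) or normexp and median centring (-1.06, adjusted p = 0.175).

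Slide and cell type nearly coincided, since only 1 of the 5 slides held both. On that slide, which carried macrophages with CMT-U27 and the CMT-W1 cancer cells, the difference was -7.95 for CD86, -4.65 for SLAMF1, -4.35 for the brighter CD80 probe, -1.69 for the dimmer CD80 probe, -1.46 for the brighter CD40 probe and -0.97 for the dimmer one. With slide as a fixed block the test rests on that slide alone, and none of the 6 differences was called (limma adjusted p = 0.144 to 0.705, 3 of 6 with an unadjusted p under 0.05).

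After co-culture the 2 sorted populations were not told apart by these genes, nor by nearly any other probe tested. The lack of a call is therefore not particular to these genes. None of the 6 probes differed between co-cultured macrophages and co-cultured cancer cells (limma adjusted p at least 0.999), none had an unadjusted p under 0.05, and 0.00357% of 27983 probes tested were called. The intervals are wide, so this does not show equal levels: the 95% interval of the difference was -1.94 to 1.42 for CD86, -1.08 to 2.74 for the brighter CD80 probe, -0.77 to 2.02 for the brighter CD40 probe and -1.18 to 1.81 for SLAMF1. In bulk samples such as these, fewer cells of a type and less RNA per cell cannot be told apart.

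Within single co-cultures the order of the 2 populations varied. With CMT-U27 the population labelled cancer cells was higher than that labelled macrophages for all 4 genes by their brighter probes, by 2.48 on the log2 scale for CD86, 2.39 for SLAMF1, 2.12 for the brighter CD80 probe and 0.56 for the brighter CD40 probe. With CMT-W1 the cancer cells were lower for all 4, by the widest margins for CD80 (-3.58) and CD40 (-2.78), and by -2.03 for SLAMF1 and -1.13 for CD86. With CMT-U309 they were lower too, by -0.19 for CD40 and by between -1.02 and -1.29 for the other three. P114 and CMT-W2 gave mixed signs.

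The order of the 4 cultures therefore differed between the genes. For CD86 the mean level was 16.89 in mono-cultured macrophages, 13.50 ± 1.72 in co-cultured cancer cells, 13.23 ± 0.82 in co-cultured macrophages and 9.18 in mono-cultured cancer cells, and the middle pair did not differ beyond its spread. The brighter CD80 probe ran from 12.61 in mono-cultured macrophages through 10.63 ± 1.12 in co-cultured macrophages and 9.79 ± 1.90 in co-cultured cancer cells to 4.48 in mono-cultured cancer cells, and SLAMF1 from 12.08 through 9.50 ± 0.89 and 9.19 ± 1.39 to 6.84 in the same order, again with a middle pair that did not differ. For the brighter CD40 probe co-cultured macrophages were highest at 13.09 ± 0.82, followed by co-cultured cancer cells at 12.47 ± 1.27 and mono-cultured macrophages at 12.42 ± 0.11, and mono-cultured cancer cells were lowest at 8.09 ± 1.12. The 2 co-cultured populations did not differ beyond their spread, and co-cultured cancer cells were not tested against mono-cultured macrophages.

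Expressing each co-culture level as a percentage of the same probe's mean level in mono-cultured macrophages put the 4 genes and the macrophage markers on one scale. In co-cultured cancer cells CD86 stood at 56.2% in CMT-U27, 14.6% in CMT-W2, 7.41% in CMT-U309, 5.34% in P114 and 2.37% in CMT-W1. The brighter CD80 probe stood at 99.95% in CMT-U27, 16.2% in CMT-W2, 16.0% in CMT-U309, 8.35% in P114 and 2.66% in CMT-W1. SLAMF1 stood at 48.9% in CMT-U27, 18.8% in CMT-U309, 16.5% in CMT-W2, 7.46% in P114 and 3.85% in CMT-W1. The median of the macrophage markers was 52.4% in CMT-U27, 11.8% in CMT-U309, 7.95% in CMT-W2, 4.05% in P114 and 1.86% in CMT-W1. CD80, CD86 and SLAMF1 thus lay within the range of the macrophage markers in each line, apart from CD86 in CMT-U309, just under the lowest marker (7.52%).

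CD40 stood above the macrophage markers. In co-cultured cancer cells the brighter probe stood at 210.4% of the mono-cultured macrophage level in CMT-U27, 156% in CMT-U309, 134% in CMT-W2, 123% in P114 and 22.3% in CMT-W1, above every macrophage marker measured in each line. The dimmer probe ranged from 88.8% in P114 to 238% in CMT-W1. In co-cultured macrophages the brighter probe stood at 364% with CMT-W2, 178% with CMT-U309, 153% with CMT-W1, 142% with CMT-U27 and 74.2% with P114, again above all 8 markers, whose medians were 2.66% to 28.0%. There CD86 ranged from 4.37% to 18.1%, CD80 from 7.11% to 55.7% and SLAMF1 from 9.32% to 38.3%. The part of macrophage RNA in the levels of the sorted cancer cells, and of cancer cell RNA in those of the sorted macrophages, was not tested.

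**Figure D3:**
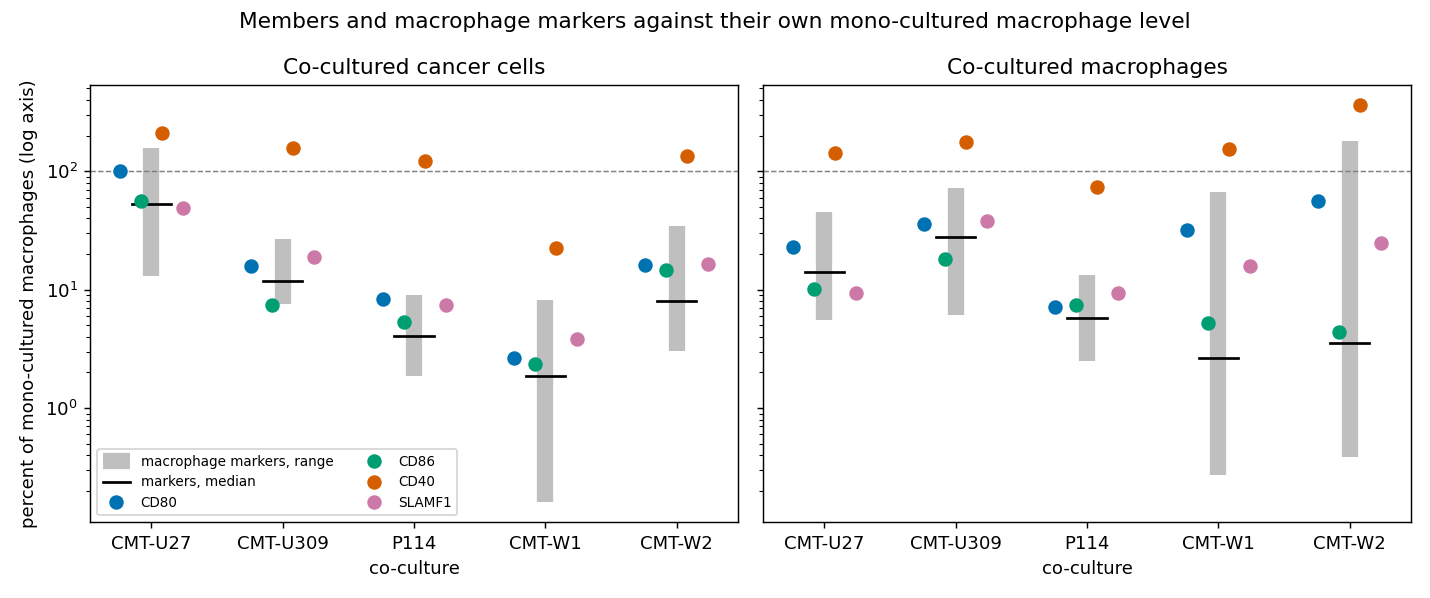
Co-culture level of each gene (brighter probe) as a percentage of its own mean level in mono-cultured macrophages, on a log axis, in the 5 sorted cancer cell populations (left) and the 5 sorted macrophage populations (right), with grey bars for the range and black lines for the median of the macrophage markers measured there (8, or 7 in CMT-U309 cancer cells). CD80, CD86 and SLAMF1 lie among the markers (CD86 in CMT-U309 cancer cells just under them), which stand highest in CMT-U27 cancer cells (median 52.4%), and CD40 lies above all of them in each population.

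The genes whose levels ran most closely with each member over the 20 cultures were taken from 667 other genes with a symbol, as a description. CD86 ran with FCGR1A, the CD64 receptor used to sort the monocytes (r = 0.986), TLR4 (0.967) and NPC2 (0.954). SLAMF1 ran with TYROBP, an adaptor of myeloid receptors (0.952), and CD86 (0.946). CD40 ran with MX1, an interferon-induced antiviral protein (0.929), PSMB8, a subunit of the immunoproteasome (0.914), and the class I major histocompatibility gene DLA-64 (0.901). CD80 shared neighbours with CD40, namely PSMB8 (0.963) and MX1 (0.954), beside SERPINA1 (0.962). Between members, CD86 and SLAMF1 reached 0.946, the brighter CD80 probe and SLAMF1 0.908, and the brighter probes of CD40 and CD86 0.733. The 20 levels share arrays in pairs and fall into a few separate groups, and the mono-culture contrast alone gives high values.

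Few partners of these molecules could be read. Of 11 T-cell receptors for costimulators, 4 had a symbol on the array. CD28, the activating receptor for CD80 and CD86, was called up in the cancer cells (log2 ratio 2.31, SE 0.59, limma adjusted p = 0.0458) and not called in the macrophages (-0.17, adjusted p = 0.651). In no mono-cultured cancer line was CD28 well above background on both arrays, so the size of its rise is set by the background. CD28 entered the cancer cell test only through the co-cultures, so a rise was favoured in advance. In CMT-W1 neither culture was above it (log2 ratio -0.11). CD40LG was not called in either (0.38, adjusted p = 0.259 in cancer cells and -0.06, adjusted p = 0.908 in macrophages). The ratios of CTLA4 and ICOS were tested within the macrophages only, with neither called. Between mono-cultures CD28 (difference 3.24, limma adjusted p = 1.39e-05), CTLA4 (3.47, 2.55e-05) and ICOS (2.70, 2.99e-05) were called higher in macrophages, as were 20.2% of all probes. CD40LG was not (0.38, 0.592). CD28, CTLA4 and ICOS entered that comparison only through the macrophages, so this direction was favoured in advance. None of 7 other B7 ligands and none of 9 other SLAM family or CD2 family members had a symbol here. Of 16 other tumour necrosis factor family costimulators only TNFSF10 (TRAIL) did, and it rose in the cancer cells (2.02, adjusted p = 0.0102) and fell in the macrophages (-1.11, adjusted p = 0.0171).

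Of the 21 genes listed for signal transduction behind CD40 and SLAMF1, 3 were tested, and in both cell types 2 were called up and none down. Of all probes tested in the cancer cells, 5.95% were called up and 5.46% down. BIRC3, an inhibitor of apoptosis bound by the CD40 signalling complex, rose in the cancer cells (log2 ratio 3.34, adjusted p = 0.0150) and in the macrophages (1.79, adjusted p = 0.00424). NFKB1, the precursor of an NF-kappaB subunit, rose by 1.33 (adjusted p = 0.0359) and 0.74 (adjusted p = 0.0464), and BIRC2 was not called. In the macrophages 20.9% of all probes tested were called up and 25.9% down, so calls of so few genes say little about CD40 signalling.

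The other T-cell signals of antigen-presenting cells did not move as a group. Of 7 tested genes, 3 were called up and 1 down in the cancer cells, and 2 up and 3 down in the macrophages. The shares over all probes were 5.95% up and 5.46% down in the cancer cells, and 20.9% and 25.9% in the macrophages. IL6 rose in both (4.37, adjusted p = 0.00661 and 4.53, adjusted p = 0.000745) and the inhibitory cytokine IL10 fell in both (-1.12, adjusted p = 0.0311 and -1.35, adjusted p = 0.00268). IL12B, which with IL12A forms interleukin 12, rose in the cancer cells (2.77, limma adjusted p = 0.0260), and IL12A rose in the macrophages (3.79, adjusted p = 0.000817). IL12B had no value in CMT-U309 cancer cells. In most mono-cultures behind these rises of IL6, IL12B and IL12A the gene was not well above background on both arrays, so the sizes are set largely by the background. These genes entered those tests only through the co-cultures, so a rise was favoured in advance. IL15 (-2.27, adjusted p = 0.00905) and IL18 (-1.47, adjusted p = 0.00486) fell in the macrophages, and the adhesion molecule ICAM1 rose in the cancer cells (1.41, adjusted p = 0.0448). Of the markers of lymphocytes, the T-cell genes CD4 and CD8A were both called down in the macrophages and neither was called in the cancer cells. CD38 moved as the macrophage markers did, with mean log2 ratios of 4.20 in cancer cells and -2.50 in macrophages. The B-cell marker MS4A1 was well above background on 1 of 10 arrays in mono-cultured cancer cells and on 6 after co-culture. It was not tested in the cancer cells and not called in the macrophages (adjusted p = 0.0550), where its log2 ratio was 5.83 with CMT-W2, 5.07 with CMT-W1, 1.72 with CMT-U309, 0.24 with P114 and -0.25 with CMT-U27. Of the dendritic cell markers CD1C was not called in either cell type, and FLT3 was well above background on 3 and 5 of 10 co-culture arrays of cancer cells and macrophages. The part of lymphocytes or dendritic cells in the levels of the 4 genes was not tested.

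**Figure D4:**
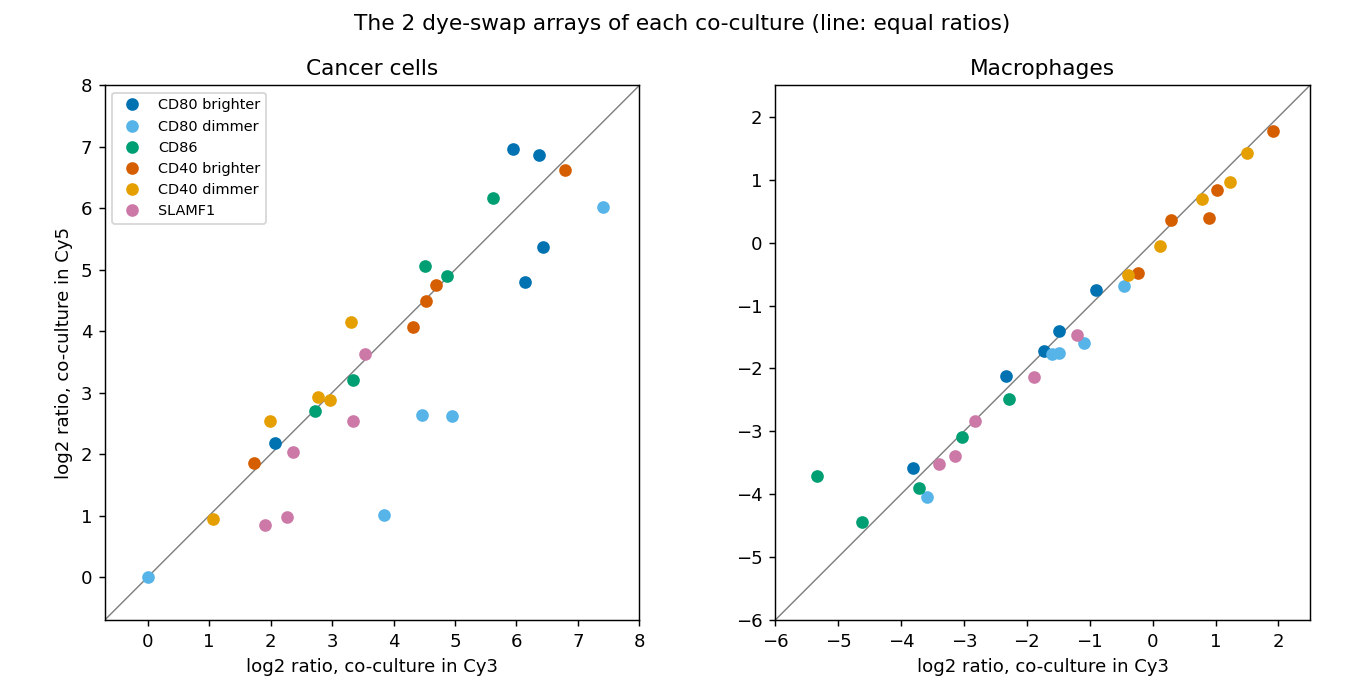
Log2 ratio of each member probe on the array with the co-culture in Cy3 (horizontal) and in Cy5 (vertical), with 1 point per probe and co-culture, in cancer cells (left) and macrophages (right), and a grey line where both are equal. In macrophages the points follow the line apart from CD86 with CMT-W1 (-5.34 and -3.70), and in cancer cells the dimmer CD80 probe lies under it by up to 2.84. The brighter CD80 probe, on both sides of the line, also leaves it there by up to 1.325, and SLAMF1 by up to 1.29.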

How the data were processed

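RNA of sorted co-cultured cells and of mono-cultured cells was compared on 20 two-colour Agilent canine arrays, 10 of cancer cells and 10 of macrophages. The authors made the deposited spot intensities of each dye (median and processed) with Agilent Feature Extraction 10.7.3.1, per the submitters' processing notes. Their deposited files also hold a log10 ratio of Cy5 over Cy3 after background subtraction and dye normalization, and other marks for outliers, saturation and signal well above background. The deposited value table held the same log10 ratios turned to co-culture over mono-culture. The members and gene lists were chosen with earlier results of these data known. The genome build of the gene table differed from that of the array design, so positions are not given, and probe sequences were not used here.

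Ratios were turned to co-culture over mono-culture and put on the log2 scale from the deposited log10 values. Control and outlier spots were left out, spots of 1 of 43603 probes were averaged, and the 2 arrays of a dye swap were averaged to 1 replicate. Symbols came from RefSeq accessions (1648 probes, 1045 symbols). Tested were probes well above background in either culture on both arrays of at least 3 of 5 co-cultures. Ratios were tested against 0 in each cell type, and between cell types, with limma 3.58.1 (lmFit, eBayes) in R 4.3.3, with Benjamini-Hochberg adjustment over all probes tested and a threshold of 0.05. Levels were log2 processed intensity per dye after Aquantile normalization, averaged over the dye swap, and were compared between cell types likewise. A fold is given as "at least" where the mono-culture was not well above background on either array of a co-culture, using the lowest signal well above background on that array or the probe's own, whichever was higher. Named genes were all member probes, the 3 genes most correlated with each member's brighter probe (1 is not reported here), and list genes by their brightest probe. The 2 cell types of a co-culture share a line by design, and the correlation of their deviations from the group means over probes was 0.0801 to 0.509, against -0.365 to 0.142 between different co-cultures. Alternatives were normexp with an offset of 50 on the median signals (the files held no mean signals) with loess or median centring, the value table, filters, single dyes, single probes, left-out lines, blocks, a dye term over 10 arrays, and the methods' t-test with Benjamini-Hochberg adjustment. The fits were tested on simulated data. Precision is limited by the number of arrays.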

Additional observations from a re-analysis of the deposited data

Results flagged for a closer look

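All 6 member probes responded differently in the 2 cell types by the limma test of the difference. Of all 31133 probes tested, 30.7% were called in this test and 16.2% below 0. With slide as a fixed block 0 probes of the array were called. The call of the dimmer CD40 probe was also lost without CMT-U27, without P114 and with either normexp setting. Macrophages minus cancer cells, the log2 ratio differed by -7.97 for CD86, -7.30 and -5.10 for the brighter and dimmer CD80 probes, -4.93 for SLAMF1, and -3.71 and -1.98 for the brighter and dimmer CD40 probes.

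Of 36 groups of 5 values (6 probes, ratios in 2 cell types and levels in 4 cultures), 4 held a value far from the others by Dixon's criterion, and chance flags about 1 group in 20. All 4 were in cancer cells and 3 of them were of CMT-W1. The log2 ratio of the brighter CD80 probe was 2.13 in CMT-W1. The co-culture level of the brighter CD40 probe was 10.3 in CMT-W1, and its mono-culture level was 6.13 in CMT-W2. The mono-culture level of CD86 was 6.61 in CMT-W1.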

How the results depend on the processing

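In macrophages 4 of 6 probes were called, against 46.8% of all probes tested. With a line left out it was 4 to 4, against 34.9% to 48.9%. With normexp and median centring 2 were called, against 25.3%. There both CD80 probes missed the threshold (limma adjusted p = 0.0529 and 0.0702). The brighter CD40 probe was called up only when the 10 arrays entered singly with a dye term (0.68, adjusted p = 0.0295). In cancer cells 6 of 6 were called, against 11.4% of all probes tested. With a line left out it was 3 to 6 (3 without P114), against 1.91% to 8.6%. It was 3 with normexp and median centring (7.64%). It was 0 with normexp and loess (0.232%) and 0 by the methods' t-test (0.00673%, 2 probes). All 6 had an unadjusted p under 0.05 in these last 2 settings. For the difference between cell types 6 were called, against 30.7% of all probes tested. With a line left out it was 5 to 6, against 21% to 27.3%. With slide as a fixed block it was 0, as it was for all probes. With the co-culture as a block, as paired samples, 6 differences were called (32.6% of all probes). Of the level differences, 6 were called in mono-culture (30.9%) and 0 in co-culture (0.00715%). This block changed no call. Mono-culture level differences were called for 6 probes, against 35.3% of all probes tested. With a line left out these differences were called for 5 to 6 probes, against 22.3% to 42%. Those between co-cultures were called for 0 probes under every setting (0 to 0 with a line left out), and their sign was not settled. With a line left out, macrophages minus cancer cells, it ran from -0.15 (without CMT-W2) to 0.36 for the dimmer CD40 probe, with -0.03 without CMT-U309 and -0.0039 for levels in Cy3 only. For CD86 it ran from -0.65 to 0.29 (without CMT-U27), with 0.11 without CMT-W2 and 0.070 with no normalization between arrays, and for SLAMF1 from -0.11 (without CMT-W1) to 0.99. The causes were not tested. The median of all macrophage ratios was -0.14, and 0.01 with loess; in cancer cells it was -0.01, and 0.16 with median centring. Of 452 single-probe values under alternatives, 403 kept direction and side of the threshold. This count is no measure of robustness, since part of it could hardly come out otherwise. The value table held the same ratios, and keeping outlier spots left the member ratios as they were. Of the 403, 65 were level differences between co-cultures, none of which was called in any setting.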
